A study of Mus musculus with 10 samples.

Results

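The neuronal intermediate filament genes Nefl, Nefm, Nefh, Ina and Prph were followed at 8 and 4 weeks of age in spinal cord from mice of the inbred C57BL/6 strain. They were found by Entrez Gene identifier (18039, 18040, 380684, 226180 and 19132 in that order), and all 5 were among the 26301 identifiers of the count files. Total RNA of the cords was sequenced in 10 libraries, 3 from males at 8 weeks, 2 from males at 4 weeks, 3 from females at 8 weeks and 2 from females at 4 weeks. No treatment, transgene or mutation is given in the labels, and the replicates are numbered without a statement that each came from its own animal, so p-values measure the spread between these libraries, which may be technical. A library held 8453559 to 11594610 counts, and levels are given as CPM, a gene's counts scaled by the total of its library to a common depth.

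Neuronal intermediate filaments are the rope-like polymers that fill large axons. Nefl, the light chain, assembles with Nefm and Nefh, the medium and heavy chains, whose long phosphorylated tails project from the filament and set the spacing in the axon, and the amount of neurofilament is known to govern the calibre of myelinated axons. Ina encodes alpha-internexin, which joins the same polymer in central neurons and appears early in development, and Prph encodes peripherin, a filament protein of neurons that send axons out of the central nervous system, such as spinal motor neurons and sensory ganglion cells. In growing nerves the heavy chain is known to accumulate later than the light and medium chains.

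The libraries carried genes of the labelled tissue. Hoxc8, a positional gene of the trunk cord, lay between 49.1 and 64.5 CPM, and Slc6a5, the glycine transporter of cord and brainstem inhibitory neurons, between 48.6 and 142 CPM. The 4 forebrain genes summed to 3.45 to 4.64 CPM in 8-week libraries and 3.54 to 5.32 CPM in 4-week libraries, and the 9 spinal cord genes, myelin genes among them, to 35699 to 41551 and 52138 to 58901 CPM. The 10 pan-neuronal genes summed to 7458 to 7869 CPM in 8-week libraries and 6523 to 7315 CPM in 4-week libraries. Genes of other tissues stood out in some libraries. The 10 skeletal muscle genes summed to 33.3 to 126 CPM in 8-week libraries and to 409 to 1641 CPM in 4-week libraries, highest in male 4-week library 1. The 6 adrenal cortex genes summed to 125 and 91.7 CPM in male 4-week libraries 1 and 2 and to 11.1 CPM or less in the other 8. The 5 lung epithelium genes summed to 799 and 91.2 CPM in male 8-week libraries 2 and 3 and to 5.98 CPM or less elsewhere.

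The filament genes were abundant and of uneven level. Together they took 0.444% to 0.514% of the counts of an 8-week library and 0.415% to 0.472% of those of a 4-week library. Per kilobase of transcript, Nefl stood highest at 547 ± 32.2 CPM per kb, followed by Nefm at 406 ± 30.6, Nefh at 298 ± 17.3, Ina at 55.2 ± 7.04 and Prph at 40.2 ± 5.31 CPM per kb (SD, n = 10 libraries each). Nefl lay above Nefm, Nefm above Nefh and Nefh above Ina in 10 of 10 libraries, and Ina above Prph in 9 of 10, the exception being male 4-week library 1. Lengths were those of the GENCODE transcript with the longest coding sequence (3380 bases for Nefl, 3334 for Nefm, 3994 for Nefh, 3240 for Ina and 1863 for Prph). With all annotated exons as the length (5782 bases for Nefm), Nefm stood at 234 ± 17.6 CPM per kb, below Nefh in 10 of 10 libraries, so the order of these chains rests on the length used. That annotation also places 1108 exon bases of Nefm opposite Nefl and 456 exon bases of Ina opposite Nt5c2, and no source used here gives the strand setting of the counting, so reads there cannot be assigned to a gene with certainty.

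The members also differed in how much they varied. Over the 10 libraries the highest level of Nefl, Nefm and Nefh was 1.26, 1.22 and 1.22 times the lowest, against 1.66 times for Ina and 1.59 times for Prph. For Ina 1 library widened that range. Male 4-week library 1 was lowest at 125 CPM, and the next was male 4-week library 2 at 164 CPM. Male 8-week library 3 was highest for Nefl, Nefh and Prph, and in CPM of total counts for Nefm, and female 8-week library 3 for Ina. Ina and Prph are printed here with the 250 bases before their RefSeq start (build GRCm38.p6, plus strand, chr19:47014431-47014680 for Ina and chr15:99054924-99055173 for Prph). RefSeq's promoter table matched only these 2 of the 5 members, so Nefl, Nefm and Nefh are named only. Capitals mark the motif TATAAA, searched on both strands.
Ina: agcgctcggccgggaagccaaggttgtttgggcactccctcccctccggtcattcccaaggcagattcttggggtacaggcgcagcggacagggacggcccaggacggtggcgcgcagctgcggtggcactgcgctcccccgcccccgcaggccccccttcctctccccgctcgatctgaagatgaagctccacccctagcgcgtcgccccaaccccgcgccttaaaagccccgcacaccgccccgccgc
Prph: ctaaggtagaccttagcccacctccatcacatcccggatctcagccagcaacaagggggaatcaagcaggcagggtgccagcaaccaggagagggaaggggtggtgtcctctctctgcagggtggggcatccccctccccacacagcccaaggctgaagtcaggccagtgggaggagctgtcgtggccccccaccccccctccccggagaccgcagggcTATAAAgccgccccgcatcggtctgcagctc
TATAAA occurred once in the Prph window, its first base 31 bases before the start, and these letters were not in the Ina window. They occurred in 12.4% of the 32851 windows of this length in the table. The dinucleotide CG occurred 25 times in the Ina window and 7 times in the Prph window, against a median of 6, and 10.7% of all windows held as many as Ina. These are descriptions of the windows and were not related to the counts.

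The levels of the neurofilament chains were close at both ages. None of the 5 genes passed the test for age over both sexes, in which the quasi-likelihood F test of edgeR, adjusted by the Benjamini-Hochberg method, called 6.62% of 15540 genes (1.61% higher and 5.01% lower at 8 weeks). DESeq2 and limma-voom also called 0 of the 5. At an unadjusted p under 0.05 there was 1 of 5, Ina, against 21.0% of all genes tested. Of the 5 log2 fold changes 4 were above 0, with a median of 0.08, where the median over all genes was 0.01. In bulk tissue, fewer cells of a type and less RNA per cell cannot be told apart.

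**Figure D1:**
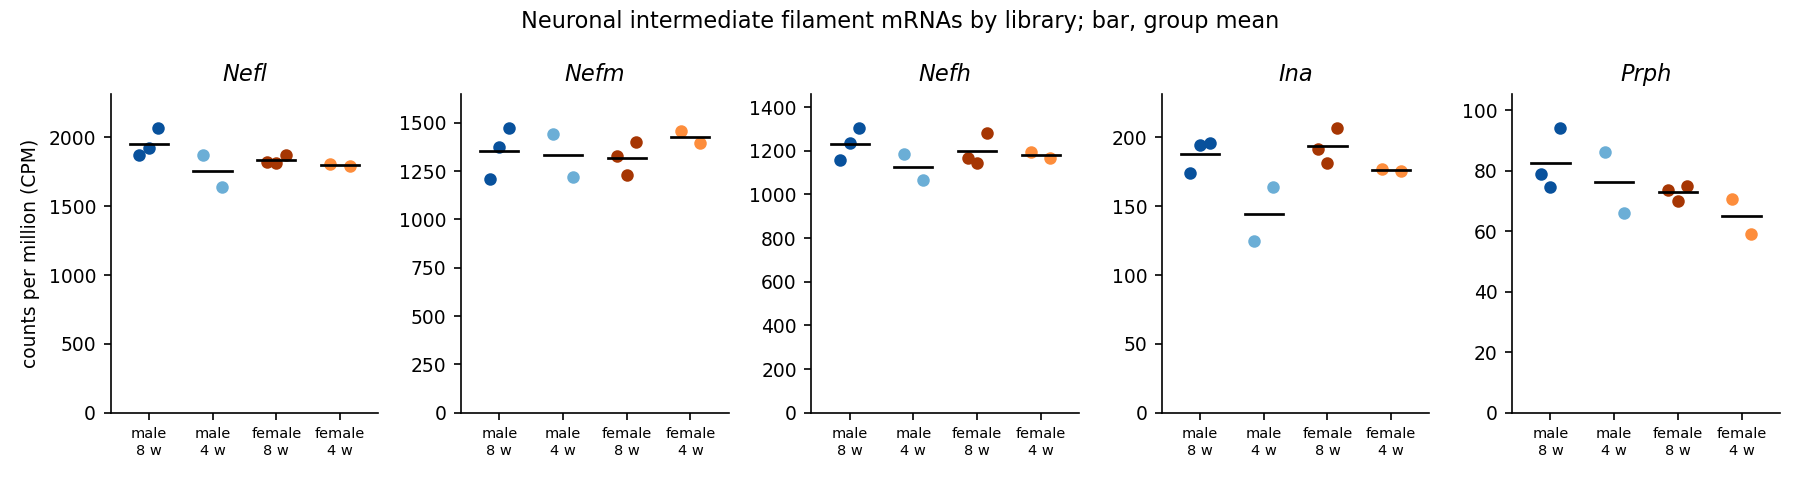
Each panel plots the CPM of 1 gene in every library, with 3, 2, 3 and 2 points for males at 8 weeks, males at 4 weeks, females at 8 weeks and females at 4 weeks, and a bar at the group mean. Nefl, Nefm and Nefh lie in narrow bands at both ages, Ina is lowest in male 4-week library 1 at 125 CPM, and Prph is highest in male 8-week library 3 at 94.3 CPM.

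Nefl, the light chain on which the polymer is built, had 1872, 1923 and 2071 CPM in males at 8 weeks, against 1874 and 1639 CPM in males at 4 weeks. In females it had 1820.5, 1816 and 1869 CPM at 8 weeks, against 1809 and 1795 CPM at 4 weeks. The ages overlapped, with 2 of 6 libraries at 8 weeks above every 4-week library in CPM and 4 of 6 in CPM scaled by TMM, the scaling of the test. The lowest value was that of male 4-week library 2 on both scales. The mean was 1895 ± 94.5 CPM at 8 weeks (SD, n = 6) and 1779 ± 99.9 CPM at 4 weeks (SD, n = 4). The log2 fold change was 0.08 (SE 0.05, edgeR adjusted p = 0.419), and its 95% interval ran from -0.03 to 0.19, or from 0.978-fold to 1.14-fold.

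Nefm, the medium chain, had 1207, 1377 and 1474 CPM in males at 8 weeks, against 1444 and 1218.5 CPM in males at 4 weeks. Female cords had 1328, 1229.8 and 1399 CPM at 8 weeks, against 1457 and 1397 CPM at 4 weeks. The ages overlapped almost wholly, since the highest and the lowest CPM of all libraries were both at 8 weeks, in male libraries 3 and 1. In scaled CPM the highest was female 4-week library 1. The mean was 1336 ± 103 CPM at 8 weeks (SD, n = 6) and 1379 ± 110.1 CPM at 4 weeks (SD, n = 4). The log2 fold change was -0.06 (SE 0.07, edgeR adjusted p = 0.675), with a 95% interval from -0.20 to 0.08, or from 0.872-fold to 1.06-fold.

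Nefh, the heavy chain with the longest tail, had 1156, 1238 and 1306 CPM in males at 8 weeks, against 1188 and 1067 CPM in males at 4 weeks. In females it had 1167, 1146 and 1282 CPM at 8 weeks, against 1193 and 1169 CPM at 4 weeks. Here 3 of 6 libraries at 8 weeks lay above every 4-week library, and the other 3 lay among them. The mean was 1216 ± 68.8 CPM at 8 weeks (SD, n = 6) and 1154 ± 58.8 CPM at 4 weeks (SD, n = 4). The log2 fold change was 0.06 (SE 0.05, edgeR adjusted p = 0.542), with a 95% interval from -0.05 to 0.18, or from 0.965-fold to 1.13-fold.

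Ina, the alpha-internexin gene, had 174, 195 and 196 CPM in males at 8 weeks, against 125 and 164 CPM in males at 4 weeks. Female cords had 192, 182 and 207 CPM at 8 weeks, against 177 and 176 CPM at 4 weeks. Of the 8-week libraries 5 of 6 lay above every 4-week library, and male 8-week library 1 did not. The mean was 191 ± 11.6 CPM at 8 weeks (SD, n = 6) and 160.4 ± 24.5 CPM at 4 weeks (SD, n = 4). The log2 fold change was 0.24 (SE 0.08, unadjusted p = 0.0105 by edgeR), with a 95% interval from 0.07 to 0.42, and it did not pass after adjustment (edgeR adjusted p = 0.0998).

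The estimate for Ina moved with the male 4-week libraries, of which library 1 was the lowest of the 10, and with a muscle score in the model. Without that library it was 0.14 (edgeR adjusted p = 0.227), without male 4-week library 2 it was 0.30 (edgeR adjusted p = 0.0488), and without both, which leaves the age difference to the females, it was 0.12 (edgeR adjusted p = 0.488). Male 4-week library 1 also held the highest muscle sum, 1641 CPM. With a muscle score added to the model, which averages the centred log2 CPM over the muscle list, the sign of Ina turned, to -0.25 (edgeR adjusted p = 0.455), while the score itself had a Pearson correlation of -0.916 with age, so the part of each cannot be told apart. The adjusted p of Ina for age over both sexes lay between 0.0488 and 0.488 over the 20 alternatives run.

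Prph, the peripherin gene, had 78.8, 74.5 and 94.3 CPM in males at 8 weeks, against 86.1 and 66.2 CPM in males at 4 weeks. The female libraries held 73.7, 70.0 and 74.9 CPM at 8 weeks, against 70.7 and 59.2 CPM at 4 weeks. The ages overlapped, with 1 of 6 libraries at 8 weeks above every 4-week library. The mean was 77.7 ± 8.59 CPM at 8 weeks (SD, n = 6) and 70.6 ± 11.4 CPM at 4 weeks (SD, n = 4). The log2 fold change was 0.13 (SE 0.08, edgeR adjusted p = 0.394), with a 95% interval from -0.05 to 0.31, or from 0.969-fold to 1.24-fold. Prph rests on 598 to 996 counts a library, and the exact 95% counting interval was 88.5 to 100.3 CPM in male 8-week library 3 and 54.6 to 64.1 CPM in female 4-week library 2, the lowest.

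**Figure D2:**
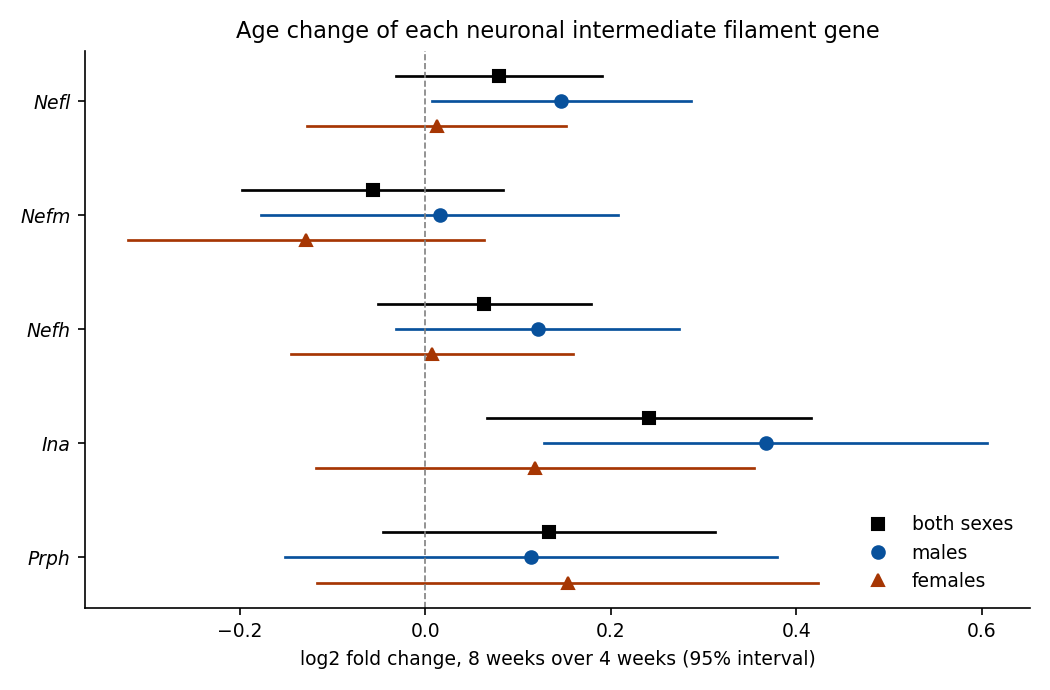
Points give the log2 fold change of each gene, 8 weeks over 4 weeks, for both sexes together (squares), males (circles) and females (triangles), and lines give the 95% interval. The intervals for both sexes cross 0 for Nefl, Nefm, Nefh and Prph and lie above it for Ina, from 0.07 to 0.42 before any adjustment.

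Within a sex the same genes were tested with a model of the 4 groups. In males 0 of the 5 passed, where 3.22% of all genes were called by edgeR (0.837% higher and 2.39% lower at 8 weeks), and 2 of the 5, Nefl and Ina, had an unadjusted p under 0.05, against 16.6% of all genes. In males DESeq2 called 1 of the 5, Ina at 0.37 (DESeq2 adjusted p = 0.0422), and limma-voom called 0. Ina stood at 0.37 in males (SE 0.11, edgeR adjusted p = 0.104) and at 0.12 in females (SE 0.11, edgeR adjusted p = 0.720). Nefl stood at 0.15 in males (SE 0.06, edgeR adjusted p = 0.275) and at 0.01 in females (SE 0.06, edgeR adjusted p = 0.967). Without male 4-week library 2 the male value of Ina was 0.61 (edgeR adjusted p = 0.00346), and without male 4-week library 1 it was 0.18 (edgeR adjusted p = 0.457).

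In females 0 of the 5 passed, where edgeR called 1.45% of all genes (0.238% higher and 1.22% lower at 8 weeks), and 0 of the 5 had an unadjusted p under 0.05, against 12.1% of all genes. DESeq2 and limma-voom also called 0 of the 5 in females. Nefm was the member with the lowest unadjusted p there, at -0.13 (SE 0.09, edgeR adjusted p = 0.607). The test of the difference between the sexes in the age change called 0.0129% of all genes and 0 of the 5 by edgeR, DESeq2 or limma-voom, with 0 of the 5 at an unadjusted p under 0.05. For Ina that difference was 0.25 with a 95% interval from -0.09 to 0.58, and for Prph -0.04 with an interval from -0.42 to 0.34.

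Males and females were also set against each other over both ages, a test that called 0.0901% of all genes (0.0644% higher and 0.0257% lower in males). None of the 5 genes passed by edgeR, DESeq2 or limma-voom, and 1 of 5, Prph, had an unadjusted p under 0.05 by edgeR, against 7.36% of all genes. Prph averaged 80.0 ± 10.8 CPM in males and 69.7 ± 6.22 CPM in females (SD, n = 5 each), a log2 fold change of 0.18 (SE 0.08, edgeR adjusted p = 0.670), with 3 of 5 male libraries above every female library. Ina averaged 171 ± 29.1 CPM in males and 187 ± 13.0 CPM in females (SD, n = 5 each), a log2 fold change of -0.16 (SE 0.08, edgeR adjusted p = 0.670). The male values of Ina included 125 CPM in male 4-week library 1, the lowest of all libraries. Leaving out each library in turn moved that fold change between -0.20 and -0.073. For Nefl 4 of 5 male libraries lay above every female library and the other lay below all of them in CPM, but 2 of 5 lay above in scaled CPM, the TMM scale that the test uses, with a log2 fold change of 0.02 (SE 0.05, edgeR adjusted p = 0.928).

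Genes of sensory ganglia and nerve roots varied between the libraries beside Prph. The 8 sensory ganglion genes, among them Avil, an actin regulator of ganglion cells, and Scn10a, a sodium channel of pain fibres, summed to 9.83 to 34.1 CPM in males and to 6.98 to 11.1 CPM in females. Scn10a, Scn11a, Trpv1 and Mrgprd were at 0 counts in some libraries, with Mrgprd at 0 in female 4-week library 1 and in all 3 female 8-week libraries. The 3 libraries with the highest Prph, male 8-week libraries 3 and 1 and male 4-week library 1, also had the highest sums of the ganglion genes, at 34.1, 17.3 and 14.2 CPM. They had the highest sums of the 7 Schwann cell genes as well, at 814, 726 and 839.9 CPM, where the other libraries lay between 159 and 578 CPM. Without male 8-week library 3 the sex difference of Prph was 0.12 (edgeR adjusted p = 0.599). With a ganglion score in the model, built like the muscle score, it was 0.0054 (SE 0.13, edgeR adjusted p = 0.997). The score ran from -0.07 to 1.73 in males and from -0.85 to -0.30 in females, with no overlap and a Pearson correlation of 0.78 with male sex, so the part of each in that value cannot be told apart.

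Motor neurons and chromaffin cells also make peripherin, and their genes were summed in the same way. The 8 motor neuron genes, among them Chat, which makes acetylcholine, summed to 314 to 367 CPM in 8-week libraries and to 308 to 325 CPM in 4-week libraries. They summed to 366.2 CPM in male 8-week library 3, which had the highest Prph, and to 366.9 CPM in female 8-week library 3, the highest sum. In male 8-week library 1 and male 4-week library 1, next in Prph, they summed to 314.0 and 315.2 CPM. The 5 adrenal medulla genes, the tissue of chromaffin cells, summed to 14.8 and 11.2 CPM in male 4-week libraries 1 and 2 and to 7.48 CPM or less in the other 8. Among them Pnmt, which makes adrenaline, was at 0 counts in those 8 libraries. The part of motor neuron, ganglion, root or adrenal RNA in the level of Prph was not tested.

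**Figure D3:**
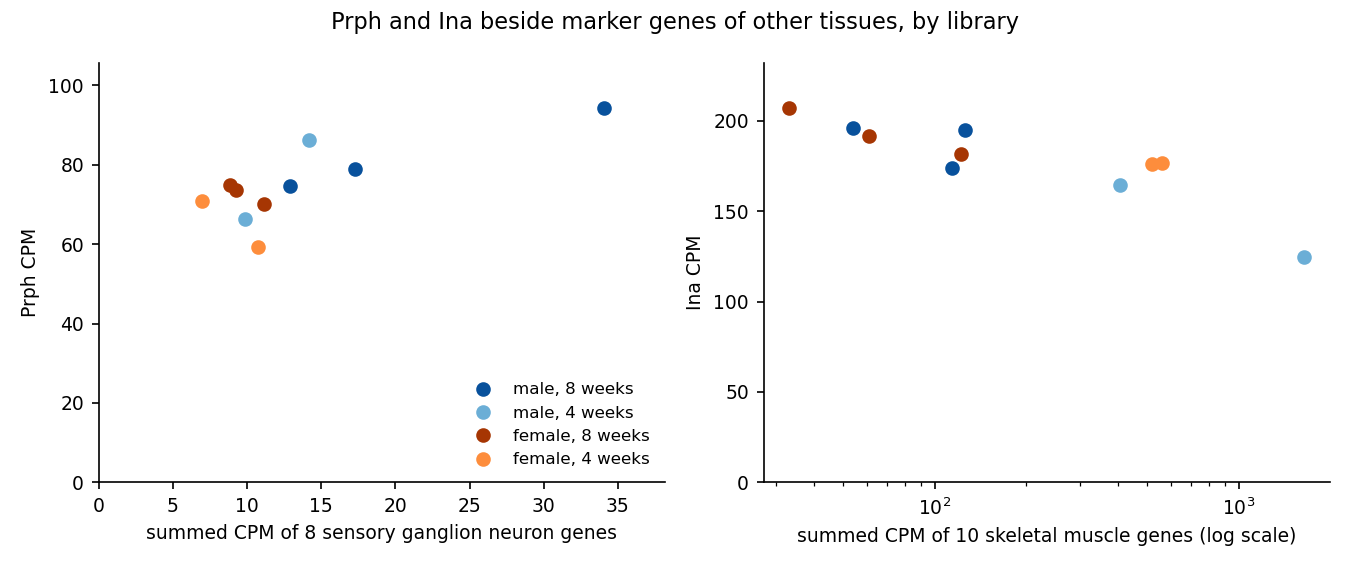
The left panel plots Prph CPM against the summed CPM of 8 sensory ganglion genes, and the right panel plots Ina CPM against the summed CPM of 10 skeletal muscle genes on a log axis, 1 point a library. Male 8-week library 3 lies apart on the left at 34.1 CPM of ganglion genes and 94.3 CPM of Prph, and male 4-week library 1 lies apart on the right at 1641 CPM of muscle genes and 125 CPM of Ina.

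The ratio of the heavy to the medium chain did not overlap between the ages, by a gap within counting error. Nefh counts divided by Nefm counts, a ratio within a library that needs no scaling, were 0.958, 0.899 and 0.886 in males at 8 weeks, against 0.823 and 0.876 in males at 4 weeks. In females they were 0.879, 0.932 and 0.916 at 8 weeks, against 0.819 and 0.836 at 4 weeks. No 8-week library was as low as the highest 4-week one, with a mean of 0.911 ± 0.03 at 8 weeks (SD, n = 6) and 0.838 ± 0.03 at 4 weeks (SD, n = 4). This was the 1 of 10 pairs of members whose ratio did not overlap between the ages. Set against Nefm in the same way, 4.14% of 15539 other tested genes did not overlap either, and 8.11% of 15540 did not overlap in CPM.

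The gap between the ages was narrow for that ratio. The nearest values were 0.879 in female 8-week library 1, with an exact 95% counting interval from 0.857 to 0.902, and 0.876 in male 4-week library 2, with one from 0.855 to 0.897, so counting error spans the gap between those libraries. The medium to light chain ratio, Nefm over Nefl, was 0.705 ± 0.04 at 8 weeks (SD, n = 6) and 0.774 ± 0.03 at 4 weeks (SD, n = 4), with 5 of 6 libraries at 8 weeks below every 4-week library. The exception was female 8-week library 3 at 0.748, just above male 4-week library 2 at 0.744. The heavy to light chain ratio, Nefh over Nefl, was 0.642 ± 0.02 at 8 weeks and 0.649 ± 0.01 at 4 weeks, and the ages overlapped. These ratios were chosen among members and were given no test.

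**Figure D4:**
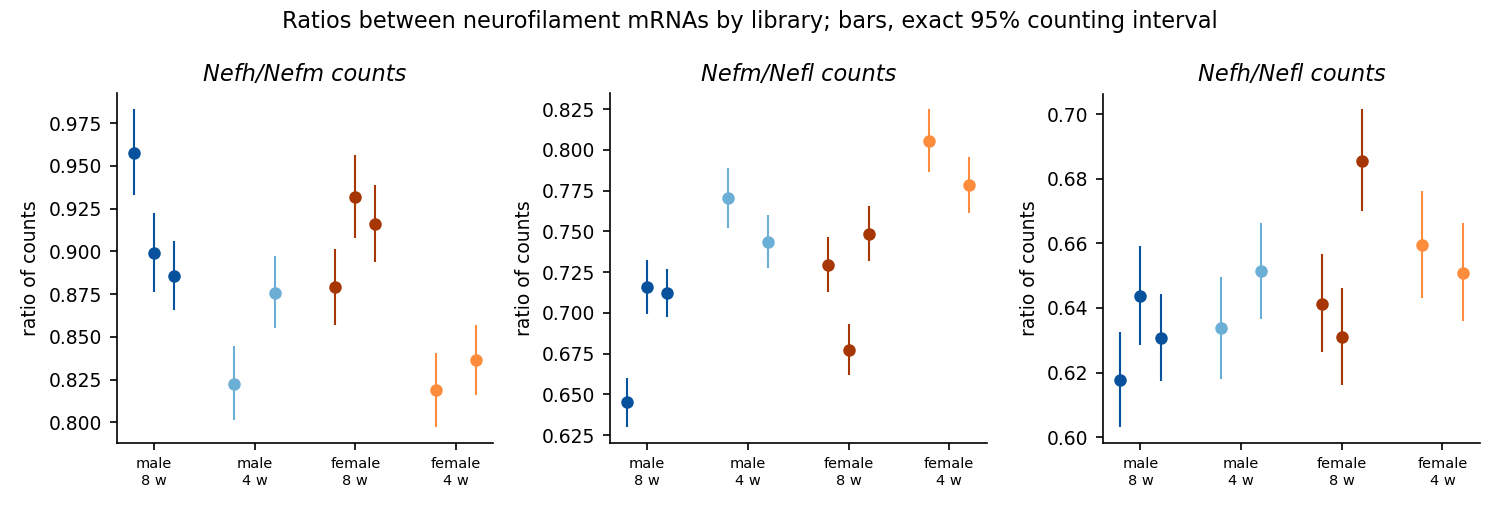
Ratios of counts between neurofilament chains are plotted for every library, with bars for the exact 95% counting interval, by sex and age. Axes do not start at 0. For Nefh over Nefm all 6 of the 8-week points, from 0.879 to 0.958, lie above the 4 points at 4 weeks, from 0.819 to 0.876, while Nefh over Nefl overlaps. The counting intervals of the nearest points for Nefh over Nefm overlap.

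Genes that carry neurofilaments along the axon included a pair that changed with age. Of the 11 transport motors and cross-linkers tested for age over both sexes, 2 rose, 0 fell and 9 did not pass, with a median log2 fold change of 0.13. Of all genes tested, 1.61% rose and 5.01% fell. Kif5a, the neuronal kinesin heavy chain that moves neurofilament cargo, had 1987, 2026 and 2189 CPM in males at 8 weeks, against 1392 and 1832 CPM in males at 4 weeks. Female cords had 2300.2, 2224 and 2283 CPM at 8 weeks, against 1640.1 and 1753 CPM at 4 weeks. It rose by 0.38 on the log2 scale (SE 0.07, edgeR adjusted p = 0.00506), and the ages did not overlap. Of all 15540 genes tested, 8.11% did not overlap between the ages in CPM.

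Kif5b, the kinesin heavy chain found in all tissues, had 694, 661 and 694 CPM in males at 8 weeks, against 517 and 636 CPM in males at 4 weeks. In females it had 745, 760.2 and 750.0 CPM at 8 weeks, against 465 and 544 CPM at 4 weeks. It rose by 0.40 (SE 0.08, edgeR adjusted p = 0.00736), again with no overlap of the ages, as for 8.11% of all genes in CPM. Beside these, the 10 pan-neuronal genes had a median log2 fold change of 0.13, of which 1 rose and 0 fell, and their summed levels did not overlap between the ages either. The part of a general neuronal shift in the kinesin values was not tested. Both calls were kept without each library in turn, at edgeR adjusted p values up to 0.0250, and ended with the muscle score as a covariate, where Kif5a stood at -0.02 (edgeR adjusted p = 0.964) and Kif5b at 0.17 (edgeR adjusted p = 0.686). Age and muscle score were tightly linked over the libraries (r = -0.916), so the model holding both cannot separate them for Kif5a and Kif5b. The related neuronal heavy chain Kif5c stood at 0.18 (SE 0.06, edgeR adjusted p = 0.108). In males alone neither Kif5a (0.35, edgeR adjusted p = 0.0961) nor Kif5b (0.23, edgeR adjusted p = 0.224) passed. In females alone Kif5b passed (0.56, edgeR adjusted p = 0.0134) and Kif5a did not (0.41, edgeR adjusted p = 0.0849).

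The genes that build, modify and turn over the axonal cytoskeleton did not pass the test for age over both sexes, which called 6.62% of all genes. Of 10 axonal tubulins and microtubule proteins 0 passed by edgeR, with a median of 0.09. Mapt, the tau protein of axonal microtubules, stood at 0.12 (SE 0.05, edgeR adjusted p = 0.150), and Tubb2a, a beta tubulin, at -0.15 (SE 0.06, edgeR adjusted p = 0.134). Of 10 kinase and phosphatase genes that act on neurofilament tails 0 passed, with a median of 0.05. Mapk10, a neuronal stress kinase, stood at 0.19 (SE 0.06, edgeR adjusted p = 0.0717), and Mapk3, which codes for ERK1, at -0.12 (SE 0.05, edgeR adjusted p = 0.236). Mapk10 was called by DESeq2 (adjusted p = 0.0291) and without male 4-week library 2 (edgeR adjusted p = 0.00790). Of 6 genes of turnover, chaperoning and RNA binding 0 passed, with a median of 0.02. Trim2, a ubiquitin ligase for the light chain, stood at 0.17 (SE 0.09, edgeR adjusted p = 0.284), and Hspb1, a small heat shock protein, at -0.30 (SE 0.17, edgeR adjusted p = 0.348).

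Among the other intermediate filaments, such as those of muscle, glia and the nucleus, some fell. Of 8 tested, 3 fell, 0 rose and 5 did not pass, with a median of -0.25, where 5.01% of all genes fell and 1.61% rose. Des, the desmin filament of muscle, fell by 2.48 (SE 0.34, edgeR adjusted p = 0.000487), to 3.70 ± 1.68 scaled CPM at 8 weeks (SD, n = 6), against 20.7 ± 11.2 scaled CPM at 4 weeks (SD, n = 4), beside the fall of the muscle sum, which was 33.3 to 126 CPM at 8 weeks and 409 to 1641 CPM at 4 weeks. With the muscle score as a covariate Des stood at 0.23 (edgeR adjusted p = 0.842), a value in which age and the score cannot be separated either. Lmnb1 and Lmna, filaments of the nuclear lamina, fell by 0.42 (SE 0.12, edgeR adjusted p = 0.0480) and 0.25 (SE 0.07, edgeR adjusted p = 0.0486). Those calls ended without male 4-week library 1, where Lmnb1 stood at -0.29 (edgeR adjusted p = 0.167) and Lmna at -0.19 (edgeR adjusted p = 0.182), and without every other library except male 4-week library 2. Gfap, the filament of astrocytes, stood at -0.12 (SE 0.09, edgeR adjusted p = 0.512), and Vim, the vimentin filament of glia, vessels and meninges, at -0.28 (SE 0.11, edgeR adjusted p = 0.133).

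**Figure D5:**
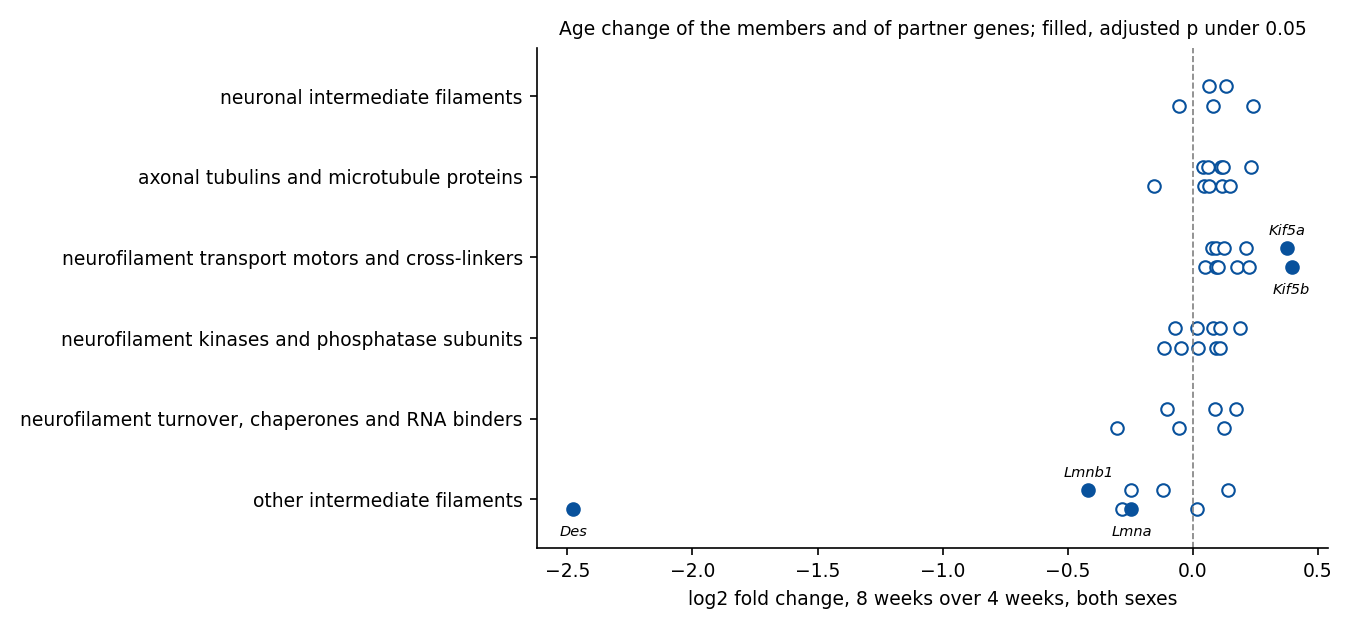
Each point is the log2 fold change of 1 gene, 8 weeks over 4 weeks with both sexes together, in rows for the 5 filament genes and the 5 partner lists, and filled points passed at an adjusted p under 0.05. Kif5a and Kif5b are the filled points above 0, and Des, Lmnb1 and Lmna are those below it.

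The genes most like each member in pattern were taken by the highest Pearson correlation of scaled log2 CPM over the 10 libraries, among 6273 genes of at least 5 log2 CPM. For Ina these were R3hdm2 (0.985), Syn2 (0.984) and Zmiz2 (0.981). For Nefl they were Klc1 (0.892), Cpne6 (0.862) and Shd (0.860), and for Nefm Safb2 (0.933), Gripap1 (0.904) and Ackr1 (0.832). For Nefh they were Vgf (0.897), Osbpl7 (0.897) and Tbkbp1 (0.895), and for Prph Rexo4 (0.934), Rgs10 (0.922) and Megf11 (0.908). The values are descriptions without a test, since all genes share the libraries, their ages and their scaling. Ina was lowest in male 4-week library 1 at 123 scaled CPM, and the next was male 4-week library 2 at 166. The weight of that lowest library in the correlations of Ina was not tested.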

How the data were processed

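Raw read counts per Entrez Gene identifier were deposited by the authors, 1 file for each of the 10 libraries and with no normalization. The tools named per the submitters' processing notes are TopHat2 2.1.0 and featureCounts, with build mm9, while no source used here gives the counting options, strand setting or annotation. Symbols for 24191 of 26301 identifiers came from RefSeq's gene table (GRCm38.p6), and transcript lengths from GENCODE M21, also GRCm38, served only for levels per kilobase.

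All genes were tested with edgeR 4.0.16 (R 4.3.3) after TMM scaling and its low-count filter (minimum count 10, minimum total 15), which left 15540 genes, all 5 members among them. The quasi-likelihood F test was two-sided, with Benjamini-Hochberg adjustment and a threshold of 0.05. An additive model of age and sex (7 residual degrees of freedom) gave the age and sex comparisons, and a model of the 4 groups (6 residual degrees of freedom) gave age within each sex and the interaction. SE was taken as the size of the log2 fold change over the root of F. CPM is of total counts except where called scaled, which is TMM. Intervals of counts are exact binomial and cover counting error only. The fit was tested on simulated data. Alternatives were DESeq2 1.42.0, limma-voom (limma 3.58.1), other scaling and filters, a block on replicate number, left-out libraries, and muscle or sensory ganglion scores as covariates.

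The members, the 5 partner lists and the 10 marker lists (pan-neuronal, motor neuron, sensory ganglion neuron, Schwann cell, adrenal medulla, adrenal cortex, skeletal muscle, lung epithelium, spinal cord and forebrain) were chosen with earlier results of these data known. Of the lists' 117 genes all were matched, 1 by an older symbol. Named were all members, the genes of each partner list called for age over both sexes or its 2 with the lowest p, and the 3 genes most correlated with each member. Kif5c, Gfap, Vim and the marker genes given were named beyond that rule, after their values were seen.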

Additional observations from a re-analysis of the deposited data

Results flagged for a closer look

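Prph in male 8-week library 3, at 94.3 CPM, stood apart from the other 8-week libraries, the next of which was at 78.8 CPM. The gap was 0.638 of the range of those 6 libraries, above Dixon's 95% critical value for 6. It was the only such value among 20 groups examined, 5 genes by 2 ages and 2 sexes, and chance flags about 1 in 20. That library also had the highest sum of sensory ganglion genes, 34.1 CPM, and the highest CPM of Nefl, Nefm and Nefh. Its motor neuron genes summed to 366.2 CPM, where the highest sum was 366.9 CPM in female 8-week library 3. The part of ganglion or motor neuron RNA in the level of Prph was not tested. Without that library Prph stood at 0.09 for age over both sexes (edgeR adjusted p = 0.629).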

How the results depend on the processing

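No member was called for age over both sexes under 19 of 20 alternatives, the exception being Ina without male 4-week library 2. Ina in males was called by DESeq2 at 0.37 (adjusted p = 0.0422), with no low-count filter at 0.37 (edgeR adjusted p = 0.0461) and without male 4-week library 2. Of the members' values, 218 kept direction and side of the threshold, 15 turned sign and 2 gained a call, beside leave-one-out values, and the cause was not tested. Totals of 8453559 to 11594610 counts and 2 or 3 libraries a group limit the precision, and with male 4-week library 1 or 2 left out the lone library is assumed to vary like the other groups.

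Genes called for age over both sexes numbered 1028, against 474 without male 8-week libraries 2 and 3, 393 without both male 4-week libraries and 35 with the muscle score. In males 501 became 15 without male 8-week libraries 2 and 3, 38 with the muscle score and 286 with the ganglion score. In females 226 became 340 with no filter, 118 without male 8-week libraries 2 and 3, and 17 with the muscle score. Because muscle score and age were so closely linked (r = -0.916), age counts and age values from models with that score cannot be assigned to either. For sex 14 became 35 with DESeq2, 60 with no filter, 38 with the block and 9 without both male 4-week libraries. The count for sex was 25 with the muscle score and 9 with the ganglion score. For the interaction 2 became 1 with limma-voom, 0 without male 8-week libraries 2 and 3 (edgeR, 548 at an unadjusted p under 0.05) and 1 with the ganglion score. Leaving out each library in turn gave 719 to 1473 for age over both sexes, 188 to 1199 in males, 62 to 394 in females, 10 to 28 for sex and 1 to 2 for the interaction.

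With the replicate block, the count for age over both sexes was 808, and signs turned for Nefm in males (-0.034) and for Nefl (-0.011) and Nefh (-0.036) in females. The numbers share no stated animal or batch, 5 of 13 same-numbered pairs had deviations correlated above 0.1 (range -0.21 to 0.24), and 2 of 10 libraries correlated best with their own number. In a group of 2 libraries the deviations from the group mean mirror each other. The pairs are therefore not separate values, and they cannot decide whether the numbers mark a pairing. Without male 8-week libraries 2 and 3, Nefl stood at -0.031 for sex, and Nefm at -0.14 in males and -0.013 for the interaction. Without both male 4-week libraries, Nefm stood at 0.017 and Nefh at 0.022 for sex. With the muscle score, Ina stood at -0.25 over both sexes, -0.11 in males and -0.33 in females, Nefh at -0.024 in females, Kif5a at -0.019, Mapk10 at -0.059, Mapk3 at 0.12, Trim2 at -0.20, Hspb1 at 0.38, Des at 0.23 and Lmna at 0.045. With the ganglion score, Nefl stood at -0.10 for sex, and Nefm at -0.046 and Prph at -0.019 in males. Leaving out each library in turn moved Nefl from -0.012 to 0.054, Nefm from -0.083 to 0.0040 and Nefh from -0.052 to 0.0049 for sex, Nefm from -0.079 to 0.13 and Prph from -0.045 to 0.30 in males, Nefh from -0.038 to 0.030 in females and Prph from -0.20 to 0.14 for the interaction.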
